A study of Homo sapiens with 15 samples.

Results

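Polycomb group proteins were described here through the transcripts of 10 of their subunits. They were chosen by symbol from the lists of Polycomb repressive complex 1 (PRC1) and Polycomb repressive complex 2 (PRC2) genes. The choice used no measured value but was made with earlier results of these data known. All 10 were present among the 35012 gene symbols of the count table, and all 10 were among the 14621 genes that passed the filter on low counts. They comprised the PRC2 genes EZH1, EZH2, EED, SUZ12 and JARID2 and the PRC1 genes BMI1, RING1, RNF2, PCGF2 and CBX7. The RNA came from HepG2, an established human liver cancer cell line. All cells received lentivirus with a short hairpin RNA (shRNA) in the presence of polybrene, were selected with puromycin and were harvested on day 5. The hairpin was non-silencing in the control group (NS, 4 libraries), directed against BRG1 in a second group (4 libraries) and against BRM in a further group (3 libraries), and a last group received both (double knockdown, 4 libraries). The genes SMARCA4 and SMARCA2 encode BRG1 and BRM respectively, which serve as alternative ATPases of the SWI/SNF chromatin remodelling complexes. A single line was used, and the hairpin sequences were not used here. Whether the libraries of a group are separate cultures is not stated in the labels, and the spread that the p-values rest on may therefore be technical.

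Polycomb complexes keep developmental genes silent. PRC2 methylates histone H3 through EZH1 or EZH2, which act only when bound to EED and SUZ12, and PRC1 attaches ubiquitin to histone H2A through RING1 or RNF2 paired with a PCGF protein. In canonical PRC1 a CBX protein such as CBX7 binds the methyl mark laid down by PRC2. SWI/SNF complexes were linked to Polycomb as its genetic opponents in flies, and BRG1-containing complexes can evict Polycomb proteins from chromatin.

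The libraries held 11500149 to 27187991 counts. In all 4 groups, libraries 1 and 2 formed a set distinct from libraries 3 and 4 (library 3 alone in the BRM group). Mitochondrially encoded genes gave 4.967 to 8.329% of counts in the former and 1.333 to 3.547% in the latter. BRM library 2 was at 4.967%, beside 8.049% in BRM 1 and 3.07% in BRM 3. Every BRM value within libraries 3 and 4 rests on BRM 3 alone. What a number shares is not stated in the labels, and changes within each set are given beside the results that turn on them. SMARCA4 had a mean of 307.2 CPM (counts scaled to a common library total, with TMM factors) in NS, 27.8 in the BRG1 group, 46.2 in the double knockdown and 345.9 in the BRM group. It was higher in the double than in the BRG1 knockdown by 0.73 ± 0.16 on the log2 scale (edgeR adjusted p = 0.00858), without overlap. The part of this difference in comparisons of those groups was not tested. SMARCA2 had a mean of 39.2 CPM in NS, 25.8 in the BRG1 group, 4.38 in the BRM group and 2.57 in the double knockdown. All 4 BRG1 libraries lay below NS for SMARCA2 (log2 change -0.61 ± 0.23, edgeR adjusted p = 0.0712, and 0.0261 with a block on replicate numbers). All 8 hepatocyte markers were detected, with a summed level of 17070 to 24860 CPM in NS, 4170 to 13230 with BRG1 knocked down, 40000 to 41500 with BRM knocked down and 8041 to 15470 with both. The markers did not all follow the sum. ALB, the highest, was at 6375 to 8579 CPM in NS and at 13879 to 19265 in the BRM group. TTR was at 89.6 to 129 CPM in NS and at 30.4 to 48.9 in the BRM group. APOA1, SERPINA1, TF and HNF4A overlapped NS in the double knockdown. SERPINA1 also overlapped NS in the BRG1 and BRM groups, and HNF4A in the BRM group. Of the markers of other cell types, 2 of 6 stromal, 3 of 5 blood and 3 of 4 endothelial genes passed the filter. The stromal sum was 31.3 to 71.7 CPM in NS, 56.8 to 244.7 with BRG1 knocked down, 13.4 to 25.9 with BRM knocked down and 20.7 to 39.8 with both, and its highest member was COL1A1. The blood sum did not exceed 10.19 CPM in any library, with CD3E at 0 in all 15, and the endothelial sum did not exceed 9.96 CPM. The part of these marker differences in the results on Polycomb genes was not tested.

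Each knockdown changed the transcripts of 2 or 3 Polycomb subunits. Knockdown of BRG1 raised JARID2 2.96-fold and lowered EZH2 1.85-fold. Knockdown of BRM lowered SUZ12 and PCGF2, and the double knockdown raised JARID2 and CBX7 and lowered SUZ12. A gene counts as changed when its adjusted p-value in edgeR's quasi-likelihood test (Benjamini-Hochberg over the 14621 genes tested) is under 0.05. By this measure 1 of the 10 subunits was higher and 1 lower in the BRG1 group than in NS, where 22.5% of all tested genes changed. After BRM knockdown 0 were higher and 2 lower, against 13.9% of all tested genes. After double knockdown 2 were higher and 1 lower, against 21.6%. The shares of subunits that changed, 2, 2 and 3 of 10, thus lay near these background shares. The median log2 change of the 10 was -0.03 in the BRG1 group, 0.03 in the BRM group and 0.29 in the double knockdown, beside medians over all tested genes of 0.02, 0.03 and 0.02. The 3 comparisons share the NS libraries. In bulk RNA, fewer cells with a transcript and less of it per cell cannot be told apart.

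**Figure D1:**
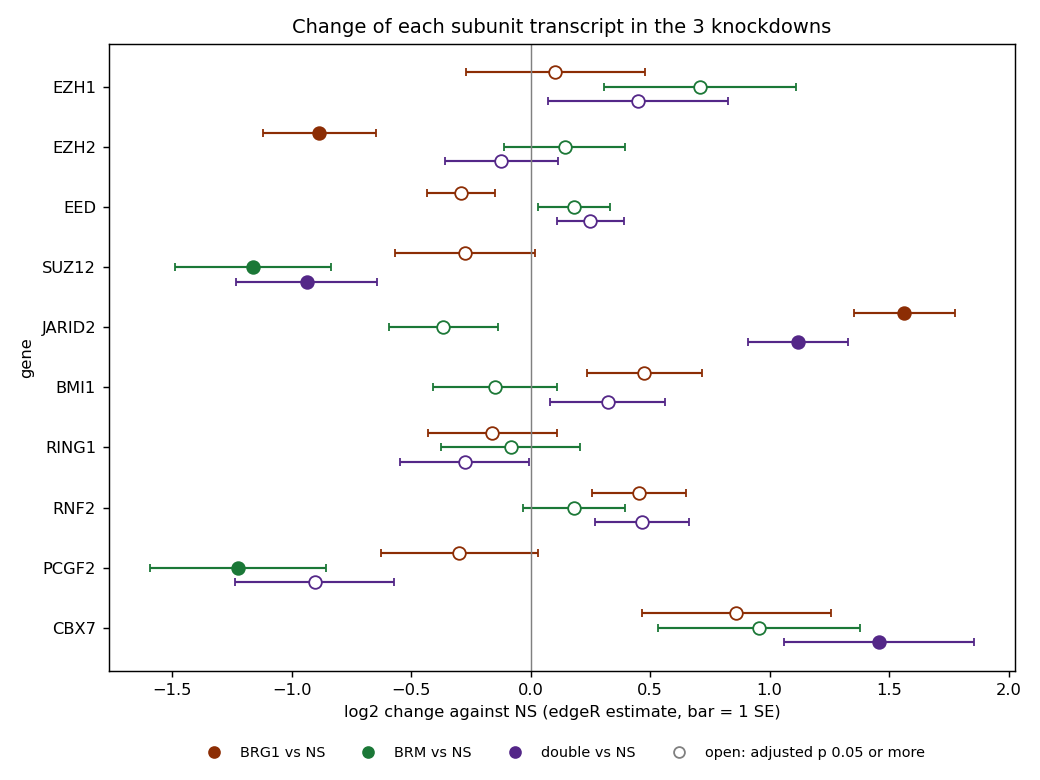
log2 change of each subunit transcript against NS (horizontal axis, edgeR estimate) for the BRG1, BRM and double knockdowns, with bars of 1 standard error; filled points have an adjusted p under 0.05 and open points do not. JARID2 lies to the right after the BRG1 (1.56) and double (1.12) knockdowns, and SUZ12 to the left after the BRM (-1.16) and double (-0.94) knockdowns.

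Per length of exon sequence, the NS levels spanned a wide range. PCGF2 was highest at 43.2 CPM per kb (SD 11.5, n = 4), followed by RING1 at 31.4, EZH2 at 8.09, BMI1 at 7.83, SUZ12 at 6.90, JARID2 at 6.36, RNF2 at 4.06, EED at 2.82, EZH1 at 1.69 and CBX7 at 0.235 CPM per kb. The ranges of the 4 libraries overlapped between PCGF2 and RING1, between EZH2 and BMI1, between BMI1 and SUZ12 and between SUZ12 and JARID2, and the other neighbours did not overlap. Compared within each library, PCGF2 exceeded RING1, BMI1 exceeded SUZ12 and SUZ12 exceeded JARID2 in 4 of 4 libraries, while EZH2 exceeded BMI1 in 2 of 4, so the order of that last pair is not resolved. Scaled instead by the longest coding transcript, SUZ12 preceded BMI1 and EED was the sixth.

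The promoters of 3 PRC2 genes whose transcripts changed are shown. They are RefSeq sequences on GRCh38.p14, from 200 bases before to 30 bases after the annotated start, in the direction of transcription. EZH2 lies at chr7:148884262-148884491 on the minus strand, SUZ12 at chr17:31936807-31937036 on the plus strand and JARID2 at chr6:15245869-15246098 on the plus strand. Capitals mark an E2F word (TTTCCCGC, TTTCGCGC, TTTGCCGC or TTTGGCGC) or CCAAT, read on either strand, so that CCAAT on the other strand appears as its reverse complement.
EZH2: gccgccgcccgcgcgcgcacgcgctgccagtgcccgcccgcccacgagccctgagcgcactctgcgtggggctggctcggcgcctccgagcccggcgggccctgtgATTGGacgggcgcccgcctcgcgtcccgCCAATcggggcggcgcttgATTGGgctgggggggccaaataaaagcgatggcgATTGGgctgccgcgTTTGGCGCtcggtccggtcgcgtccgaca
SUZ12: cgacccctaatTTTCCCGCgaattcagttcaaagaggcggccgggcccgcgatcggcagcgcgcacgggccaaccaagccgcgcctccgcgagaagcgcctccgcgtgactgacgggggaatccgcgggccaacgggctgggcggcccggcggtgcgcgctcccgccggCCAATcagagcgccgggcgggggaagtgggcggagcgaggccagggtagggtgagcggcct
JARID2: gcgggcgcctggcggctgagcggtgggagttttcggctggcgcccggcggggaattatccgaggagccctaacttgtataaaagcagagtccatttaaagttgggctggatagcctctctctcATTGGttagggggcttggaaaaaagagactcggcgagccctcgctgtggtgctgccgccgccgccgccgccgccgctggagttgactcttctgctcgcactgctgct
The words were counted in windows from 250 bases before to 50 after each start, in which the words do not overlap one another. The percentages are shares of windows, whereas a gene counts when any of its windows holds the word. EZH2, JARID2 and BMI1 had 2 windows each, the second without any of the words. An E2F word was present in 3.3% of 34943 RefSeq promoter windows and in 3 of the 10 subunits (EZH1, EZH2 and SUZ12). CCAAT was present in 34.6% of windows and in 5 of the 10 (EZH2, EED, SUZ12, JARID2 and CBX7), with 4 copies in EZH2. The AP-1 words TGACTCA and TGAGTCA were in 4.96% of windows and in 0 of the 10. Among 24 cell cycle genes of a list of 30 that matched a window, 10 held an E2F word, 21 held CCAAT and 0 held an AP-1 word. These are matches of letters, and no binding was measured.

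EZH2, the main methyltransferase of PRC2 in dividing cells (chromosome 7, 148807383 to 148884321, minus strand, GRCh38), was at 36.9, 36.4, 35.7 and 37.2 CPM in NS libraries 1 to 4. It was at 19.3, 16.1, 22.9 and 20.98 CPM in the BRG1 group, at 59.9, 31.5 and 29.9 in the BRM group and at 41.4, 42.0, 23.5 and 27.6 in the double knockdown. All 4 BRG1 libraries lay below every other library, while the BRM and double groups overlapped NS. EZH2 fell by 0.88 ± 0.24 (SE) on the log2 scale after BRG1 knockdown (edgeR, adjusted p = 0.0147), with changes of -1.05 within libraries 1 and 2 and -0.73 within libraries 3 and 4. The change was 0.14 ± 0.25 after BRM knockdown (adjusted p = 0.785) and -0.12 ± 0.24 after double knockdown (adjusted p = 0.772), and without BRM library 1, which held the highest value, the BRM estimate was -0.28. The double estimate pools opposite directions, 0.18 within libraries 1 and 2 and -0.52 within libraries 3 and 4. For BRM these values were 0.31 and -0.28. Compared directly, EZH2 was lower in the BRG1 than in the BRM group (log2 difference -1.03 ± 0.25, adjusted p = 0.00577). Between the double and BRG1 knockdowns the log2 difference was 0.76 ± 0.24 with an adjusted p of 0.0537. That comparison passed the threshold with DESeq2 (adjusted p = 0.0187) and without BRM library 1 (0.0183), BRM library 3 (0.0402) or double library 3 (0.0319), and its size was 1.24 within libraries 1 and 2 and 0.22 within libraries 3 and 4.

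Cell cycle genes were lower in the BRG1 group, as EZH2 was. After BRG1 knockdown 20 of 30 listed cell cycle genes fell and 0 rose, where 9.97% of all tested genes were lower, and their median log2 change was -1.04 (-1.62 within libraries 1 and 2 and -0.79 within libraries 3 and 4). TOP2A, which relaxes DNA before mitosis, fell by 1.78 ± 0.25, the proliferation marker MKI67 by 1.83 ± 0.33, the replication clamp PCNA by 1.22 ± 0.19 and the replicative helicase subunit MCM3 by 1.25 ± 0.27 on the log2 scale. The sets differed for MCM3 (-1.98 within libraries 1 and 2 and -0.76 within libraries 3 and 4, edgeR adjusted p of the difference = 0.0345) and for PCNA (-1.65 and -0.84, 0.0477). With BRM knocked down 0 of 30 changed by edgeR, where 13.9% of all tested genes did, with 1 below 0.05 before adjustment and 0 by DESeq2. After double knockdown, where EZH2 did not pass the test, 1 rose and 4 fell, beside 11.8 and 9.90% of all tested genes. The median was -0.61, and those that fell included TOP2A (-1.12 ± 0.25), MKI67 (-1.29 ± 0.33) and MCM3 (-1.18 ± 0.27). The part of the cell cycle genes in the EZH2 result was not tested. The genes whose log2 CPM followed EZH2 most closely over the 15 libraries, among 11903 genes whose mean reached 2 CPM, were NCAPG (Pearson r = 0.969), a condensin subunit, HMGB2 (0.962), a chromatin protein of dividing cells, and CENPU (0.955), a centromere protein. With each set of numbers centred on its own mean, these values were 0.979, 0.966 and 0.952. They are descriptions over libraries that share the group differences.

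EZH1, the alternative methyltransferase that predominates in resting cells (chromosome 17, 42700275 to 42745049, minus strand), was at 16.9, 15.2, 8.03 and 7.02 CPM in NS and at 16.1, 17.7, 9.66 and 7.22 CPM in the BRG1 group. It was at 26.5, 19.9 and 11.5 CPM in the BRM group and at 20.3, 20.03, 14.4 and 9.73 in the double knockdown. In every group libraries 1 and 2 were higher than the rest, and with the sets pooled all 3 knockdown groups overlapped NS. Within each set, every BRM and double library lay above every NS library. In the pooled fit no change passed the threshold. The log2 change was 0.10 ± 0.37 after BRG1 knockdown (edgeR adjusted p = 0.888), 0.71 ± 0.40 after BRM knockdown (0.284) and 0.45 ± 0.37 after double knockdown (0.447). After BRM knockdown it was 0.53 within libraries 1 and 2 and 0.62 within libraries 3 and 4. After double knockdown these values were 0.33 and 0.70. With the replicate number as a block the double knockdown estimate was 0.49 with an adjusted p of 0.0168. A term for the library sets gave edgeR adjusted p-values of 0.0164 (BRM) and 0.0184 (double).

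The paralogous enzymes were also compared as a ratio within each library, which does not depend on library scaling. The log2 ratio of EZH2 to EZH1 CPM (0.5 CPM added to each) was 1.69 ± 0.61 (SD, n = 4) in NS, 0.70 ± 0.76 (n = 4) with BRG1 knocked down, 1.05 ± 0.36 (n = 3) with BRM knocked down and 1.05 ± 0.32 (n = 4) with both. The pooled groups overlapped in each comparison. Two-sided exact permutation tests gave p = 0.143, 0.257 and 0.143 for the 3 knockdowns against NS, where 4 against 4 libraries cannot go below 0.0286 and 3 against 4 cannot go below 0.0571. The adjusted values over the 9 ratio tests of this family (exact permutation, Benjamini-Hochberg) were 0.257, 0.331 and 0.257. Between same-numbered libraries, which were taken as paired for BRG1 with NS and for the double knockdown with NS, the difference from NS was -0.848, -1.37, -0.883 and -0.849 in the BRG1 group, below 0 in 4 of 4 pairs. It was -0.097, -0.185, -1.40 and -0.868 in the double knockdown, again below 0 in 4 of 4. An exact paired permutation test (two-sided, over sign changes) gave p = 0.125 for each, the smallest that 4 pairs allow.

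SUZ12, the PRC2 subunit that holds the complex together (chromosome 17, 31937018 to 32001045, plus strand), was at 47.5, 48.2, 40.3 and 44.7 CPM in NS and at 39.6, 45.4, 31.3 and 33.2 in the BRG1 group. It was at 35.5, 11 and 14.3 CPM in the BRM group and at 27, 28.9, 21.6 and 17 in the double knockdown. Every BRM and double library lay below every NS library, and BRM library 1 lay well above the other BRM libraries. The log2 change was -1.16 ± 0.33 after BRM knockdown (edgeR adjusted p = 0.0292), -1.06 within libraries 1 and 2 and -1.57 within libraries 3 and 4. It was -0.94 ± 0.30 after double knockdown (adjusted p = 0.0347), -0.78 and -1.14 within the sets. After BRG1 knockdown it was -0.27 ± 0.29 (adjusted p = 0.573), with groups that overlapped. The double and BRM knockdowns differed by 0.23 ± 0.32 on the log2 scale (adjusted p = 0.692).

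Both SUZ12 calls depended on single libraries. The BRM call was lost without NS library 1 (adjusted p = 0.0578), NS 2 (0.0511), NS 4 (0.0551), BRM 2 (0.106) or BRM 3 (0.0838), and the double call without NS 1 (0.0708), NS 2 (0.0602), NS 3 (0.0521), NS 4 (0.063), double 3 (0.0795) or double 4 (0.0761). The SUZ12 estimate stayed negative in all 15 leave-outs, between -1.87 and -0.91 for BRM and between -1.10 and -0.85 for the double knockdown. The difference between the BRG1 and BRM groups (0.89 ± 0.32, adjusted p = 0.0469) was lost in 12 of the 15 leave-outs, at most with an adjusted p of 0.182, and those groups overlapped. It passed without BRG1 3, BRM 1 or double 4. SUZ12 has a transcribed pseudogene copy, SUZ12P1, with 1107 counts in all libraries together beside 9061 for SUZ12, so reads may be divided between them. SUZ12P1 was at 2.12 to 7.37 CPM in NS and at 2.72 to 9.03 CPM in the BRM group. Over the 15 libraries the closest followers of SUZ12 were FAM184A (r = 0.959), SPICE1 (0.953), a centriole protein, and TMED5 (0.945).

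EED, the subunit that reads the methyl mark and stimulates the enzyme (chromosome 11, 86244544 to 86278813, plus strand), was at 18.5, 19.9, 20.3 and 20.4 CPM in NS, at 17.4, 13.03, 17.97 and 16.2 in the BRG1 group, at 22.9, 24.6 and 19.7 in the BRM group and at 23.8, 21.1, 26.5 and 22.5 in the double knockdown. The BRG1 libraries lay below and the double libraries above every NS library, but neither change passed the test (-0.29 ± 0.14, edgeR adjusted p = 0.161, and 0.25 ± 0.14, adjusted p = 0.233). The change after BRM knockdown was 0.18 ± 0.15 (adjusted p = 0.503). EED was higher in the double than in the BRG1 knockdown by 0.54 ± 0.14 on the log2 scale (adjusted p = 0.0227), the only subunit of the 10 that differed in this comparison, where 10.8% of all tested genes did (4.1% higher and 6.72% lower), and the EED difference was 0.56 within libraries 1 and 2 and 0.52 within libraries 3 and 4. That call was lost without BRG1 library 2 (adjusted p = 0.0739), double 1 (0.0633) or double 3 (0.0652). EED was lower in the BRG1 than in the BRM group by -0.47 ± 0.15 (adjusted p = 0.025), a call lost without BRG1 2 (0.0768), BRM 1 (0.0551) or BRM 2 (0.11).

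JARID2, an accessory subunit that helps bring PRC2 to its sites (chromosome 6, 15246296 to 15522040, plus strand), changed most in the BRG1 group. It was at 42.9, 40.7, 33.7 and 35.8 CPM in NS and at 135.6, 155.0, 80.2 and 81.9 CPM in the BRG1 group. It was at 29.9, 33.5 and 25.8 CPM in the BRM group and at 87.6, 80.7, 95.2 and 69.1 CPM in the double knockdown. All 8 libraries with BRG1 knocked down lay above all 7 others, and the BRM libraries lay below all NS libraries. JARID2 rose by 1.56 ± 0.21 on the log2 scale after BRG1 knockdown (edgeR adjusted p = 0.000146), by 1.80 within libraries 1 and 2 and by 1.22 within libraries 3 and 4. It rose by 1.12 ± 0.21 after double knockdown (adjusted p = 0.00161), by 1.01 and 1.24 within the sets. After BRM knockdown the change was -0.36 ± 0.23 (adjusted p = 0.336). The double knockdown minus the BRG1 knockdown was -0.45 ± 0.21 on the log2 scale (edgeR adjusted p = 0.206). That difference was -0.79 within libraries 1 and 2 and 0.02 within libraries 3 and 4. JARID2 was higher in the BRG1 than in the BRM group by 1.93 ± 0.24 (adjusted p = 3.08e-05) and higher in the double than in the BRM knockdown by 1.48 ± 0.23 (adjusted p = 0.000498). It was the only subunit that differed between the double and BRM knockdowns, where 19.1% of all tested genes did (9.32% higher and 9.74% lower). JARID2-AS1 lies on the opposite strand and the strand setting of the counting is not given, so reads of the pair cannot be told apart. The closest followers of JARID2 were HIST1H2BC (r = 0.989), a histone H2B gene, DCBLD1 (0.989) and MOSPD1 (0.988).

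**Figure D2:**
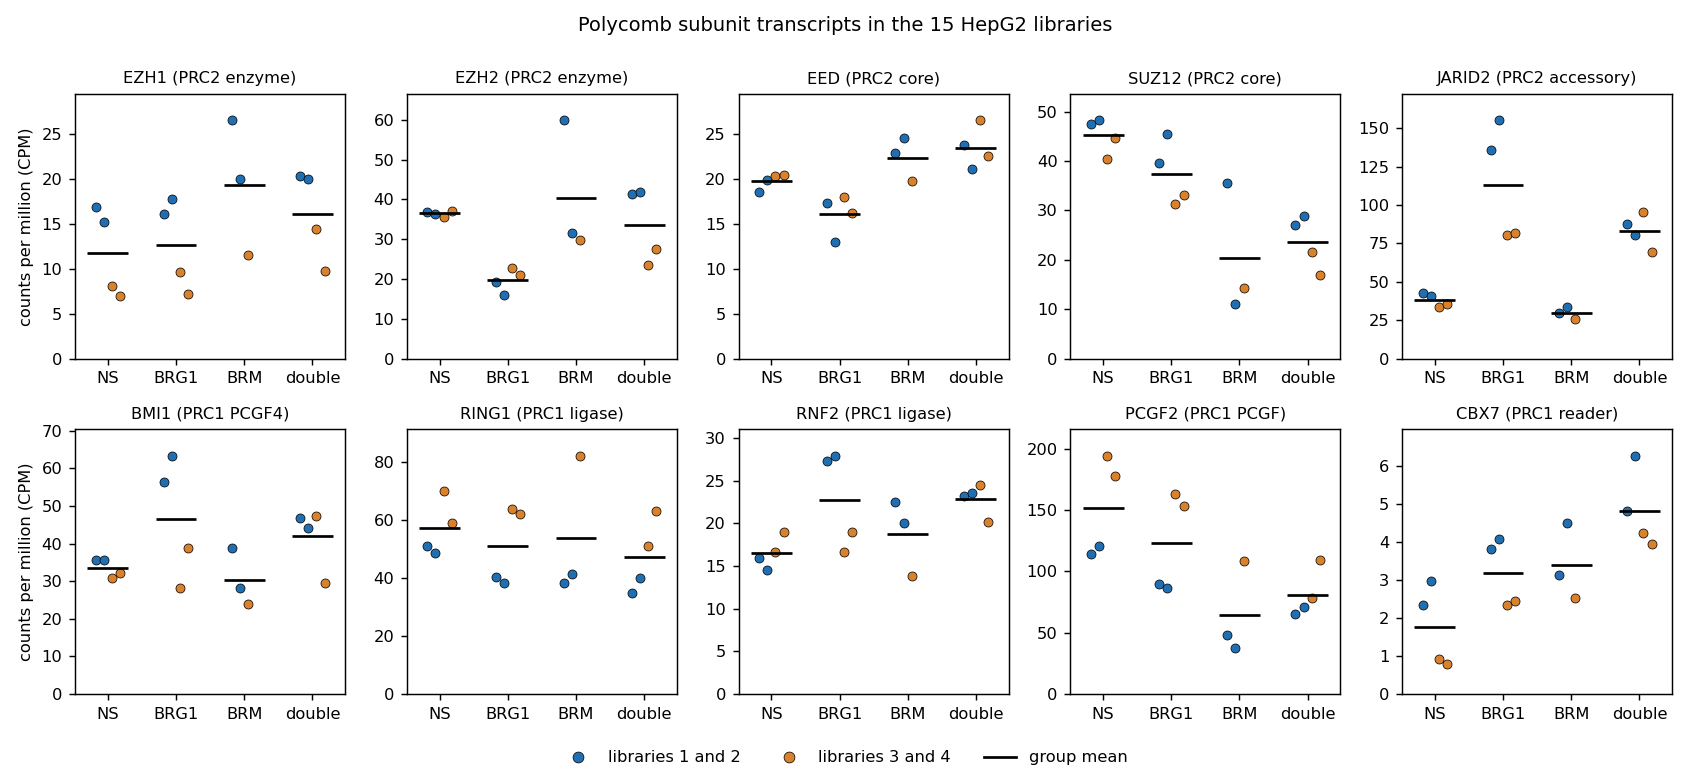
CPM of the 10 subunits in each of the 15 libraries, by group, with a linear vertical axis from 0 in each panel; blue points are libraries 1 and 2, orange points libraries 3 and 4, and bars mark group means. JARID2 is at 69.1 to 155.0 CPM in the 8 libraries with BRG1 knocked down and at 25.8 to 42.9 CPM in the other 7, and EZH1, CBX7, RING1 and PCGF2 separate by library number within each group.

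RING1 and RNF2 are the alternative ubiquitin ligases of PRC1. RING1 (chromosome 6, 33208495 to 33212722, plus strand) was at 50.9, 48.6, 69.9 and 58.8 CPM in NS, at 40.2, 38.3, 63.7 and 62.0 in the BRG1 group, at 38.0, 41.3 and 82.0 in the BRM group and at 34.7, 39.9, 50.9 and 62.9 in the double knockdown. Every group overlapped every other, and the log2 changes were -0.16 ± 0.27 (BRG1, edgeR adjusted p = 0.74), -0.08 ± 0.29 (BRM, 0.899) and -0.28 ± 0.27 (double, 0.526). RNF2 (chromosome 1, 185045364 to 185102608, plus strand) was at 15.9, 14.6, 16.7 and 19.0 CPM in NS, at 27.3, 27.9, 16.7 and 19.0 in the BRG1 group, at 22.5, 20.1 and 13.9 in the BRM group and at 23.2, 23.5, 24.5 and 20.1 in the double knockdown. The double libraries lay above all NS libraries, while BRG1 libraries 1 and 2 lay above NS and libraries 3 and 4 within it. The log2 changes of RNF2 were 0.45 ± 0.20 (BRG1, adjusted p = 0.116), 0.18 ± 0.21 (BRM, 0.654) and 0.47 ± 0.20 (double, 0.108). Within libraries 1 and 2 the BRG1 change of RNF2 was 0.85, within libraries 3 and 4 it was -0.01, and without BRG1 library 3 it passed the threshold (adjusted p = 0.0491). RNF2 has a pseudogene copy, RNF2P1, with 148 counts in all beside 5906 for RNF2.

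BMI1 and PCGF2 are alternative partners of these ligases. BMI1 (chromosome 10, 22321211 to 22331484, plus strand) was at 35.5, 35.6, 30.8 and 32.2 CPM in NS, at 56.3, 63.3, 28.1 and 38.8 in the BRG1 group, at 38.8, 28.2 and 23.8 in the BRM group and at 46.7, 44.1, 47.3 and 29.5 in the double knockdown. All 3 knockdown groups overlapped NS. The log2 changes were 0.48 ± 0.24 (BRG1, edgeR adjusted p = 0.183), -0.15 ± 0.26 (BRM, 0.78) and 0.32 ± 0.24 (double, 0.39). The BRG1 change of BMI1 was 0.75 within libraries 1 and 2 and 0.08 within libraries 3 and 4, and passed the threshold without BRG1 library 3 (adjusted p = 0.0475). A readthrough transcript, COMMD3-BMI1, shares the exons of BMI1 and held 0 to 18.2% of their sum in a library. The sum was 35.8 ± 0.333 CPM (SD, n = 4) in NS, 48.6 ± 14.2 (n = 4) with BRG1 knocked down, 31.1 ± 8.06 (n = 3) with BRM knocked down and 42.5 ± 8.84 (n = 4) with both.

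PCGF2 (chromosome 17, 38733897 to 38749817, minus strand) was at 113.9, 120.4, 194.3 and 177.8 CPM in NS and at 89.7, 86.4, 163.1 and 153.7 in the BRG1 group. It was at 47.9, 37.9 and 108.7 CPM in the BRM group and at 65.3, 71.0, 78.4 and 109.5 in the double knockdown. Every BRM and double library lay below every NS library, and in every group libraries 1 and 2 lay below the others. BRM knockdown lowered PCGF2, with a log2 change of -1.22 ± 0.37 (edgeR adjusted p = 0.0389), with -1.45 within libraries 1 and 2 and -0.77 within libraries 3 and 4. The call was lost without NS 3 (adjusted p = 0.0916), NS 4 (0.086), BRM 1 (0.106) or BRM 2 (0.17), and with no filter on low counts (0.0501). After double knockdown the change of PCGF2 was -0.90 ± 0.33 with an adjusted p of 0.0668, and -0.78 and -0.99 within the sets. It passed in the blocked fit on replicate numbers (adjusted p = 0.00107), with DESeq2 (0.0355) and without BRM 2 (0.0495), BRM 3 (0.0227) or double 4 (0.0378). After BRG1 knockdown it was -0.30 ± 0.33 (adjusted p = 0.587). PCGF2 overlaps CISD3 on the opposite strand. Its closest followers were SSR2 (r = 0.98), FAHD2B (0.973) and CHPF (0.966).

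CBX7, a reader of the methyl mark in canonical PRC1 (chromosome 22, 39120167 to 39152674, minus strand), had the lowest counts, 112 over the 4 NS libraries. It was at 2.33, 2.96, 0.922 and 0.790 CPM in NS, at 3.83, 4.08, 2.35 and 2.46 in the BRG1 group, at 3.14, 4.50 and 2.54 in the BRM group and at 4.81, 6.27, 4.25 and 3.95 in the double knockdown. All 4 double libraries lay above all NS libraries, and with the sets pooled the single knockdowns overlapped NS. Within each set, every BRG1 and BRM library lay above every NS library. CBX7 rose by 1.46 ± 0.40 on the log2 scale after double knockdown (edgeR adjusted p = 0.0167), by 1.07 within libraries 1 and 2 and by 2.27 within libraries 3 and 4. The call was lost without NS 3 (adjusted p = 0.0502) or double 2 (0.0581). The changes of CBX7 were 0.86 ± 0.40 after BRG1 knockdown (adjusted p = 0.141) and 0.95 ± 0.42 after BRM knockdown (0.158). With the replicate number as a block the BRG1 change was 0.95 with an adjusted p of 0.0113.

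The ratios of the PRC1 alternatives in the knockdown libraries overlapped those in NS. The log2 ratio of RNF2 to RING1 was higher than in NS by 0.60 (BRG1), 0.32 (BRM) and 0.75 (double), with exact permutation p-values of 0.257, 0.486 and 0.0571. The log2 ratio of BMI1 to PCGF2 was higher by 0.72, 1.16 and 1.18, with exact permutation p-values of 0.314, 0.114 and 0.0857. None of the 6 comparisons passed after adjustment over the 9 tests (smallest adjusted exact permutation p = 0.257). Between same-numbered libraries the BMI1 to PCGF2 ratio was higher than in NS in 4 of 4 pairs for both the BRG1 and double knockdowns (exact paired permutation p = 0.125), and the RNF2 to RING1 ratio in 3 of 4 pairs for both (0.25). Adjusted over these 6 paired tests, the exact permutation p-values were 0.188 to 0.25.

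**Figure D3:**
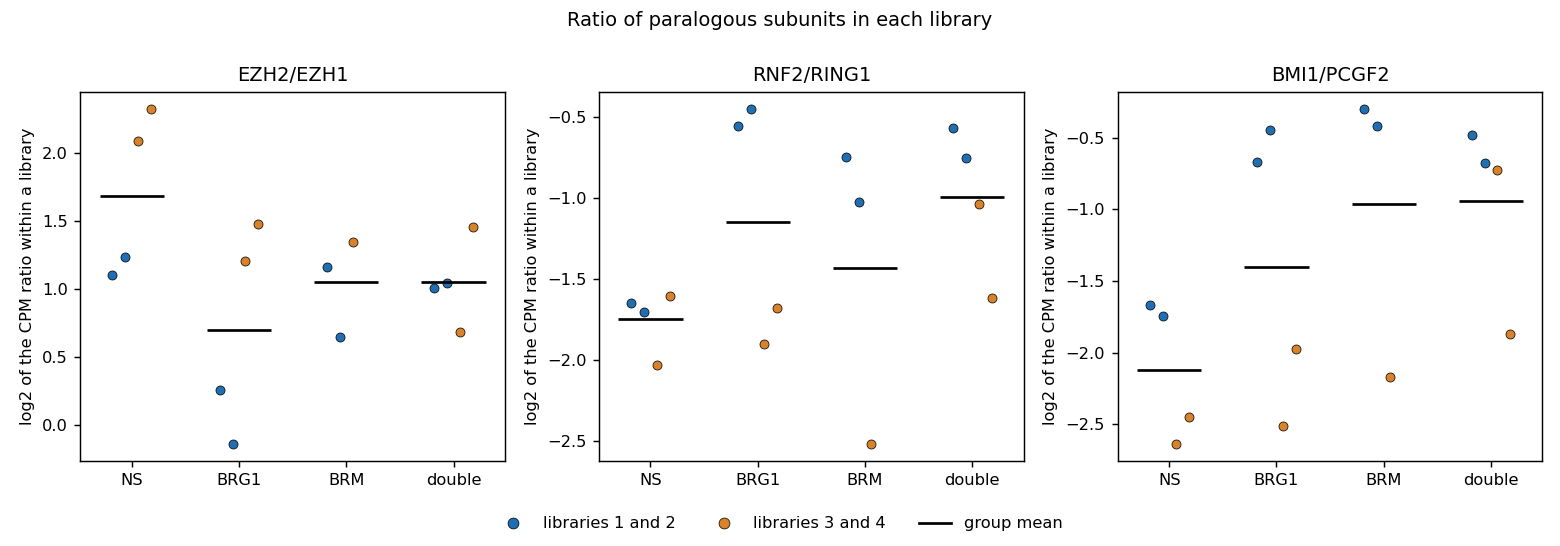
log2 ratio of CPM within each library (vertical axis, 0.5 CPM added to both) for EZH2 to EZH1, RNF2 to RING1 and BMI1 to PCGF2, by group, with bars at the group means. Every knockdown group overlaps NS, and the mean EZH2 to EZH1 ratio is 1.69 in NS and 0.70 in the BRG1 group.

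The knockdowns were compared with one another for all 10 subunits. Between the BRG1 and BRM groups 2 subunits were higher (JARID2 and SUZ12) and 2 lower (EZH2 and EED) in the BRG1 group, where 33.9% of all tested genes differed (17.2% higher and 16.7% lower). The fit with the replicate number as a block called 6 of the 10, and 49.4% of all tested genes (25% higher and 24.4% lower). It added BMI1 (log2 0.69, edgeR adjusted p = 0.0148) and PCGF2 (0.87, 0.00153). The interaction, the double knockdown's change minus the sum of the single changes on the log2 scale, was called for 0 of the 10 by edgeR, with 0 below 0.05 before adjustment and 0 by DESeq2. Its estimates ran from -0.36 to 0.62, with adjusted p-values from 0.537 to 0.999, where 0.499% of all tested genes were called. The smallest adjusted p was that of EZH2 (0.62 ± 0.35). These intervals do not show that the single effects add up.

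Within each set of library numbers, the subunits called against NS kept their directions. The calls rest on the same libraries, so this is not separate support for them. The difference between the sets in a change was tested for each subunit and comparison, and 0 were called by edgeR. Among the other genes named here it was called for MCM3 and PCNA after BRG1 knockdown and for KDM2B and PAX6 after double knockdown. With few libraries in each set, an uncalled difference does not show that the changes were equal. In all 4 groups EZH1 and CBX7 were higher and RING1 and PCGF2 lower in libraries 1 and 2 than in the higher-numbered libraries, without overlap. Among pairs of subunits over the 15 libraries, the log2 levels of BMI1 and RNF2 went together (r = 0.827, and 0.80 with sets centred), as did those of JARID2 and BMI1 (0.774 and 0.823). EZH1 and PCGF2 went opposite ways (-0.87 and -0.798). SUZ12 and PCGF2 had r = 0.465, and 0.826 with sets centred. These correlations are descriptions of libraries that share groups and sets.

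**Figure D4:**
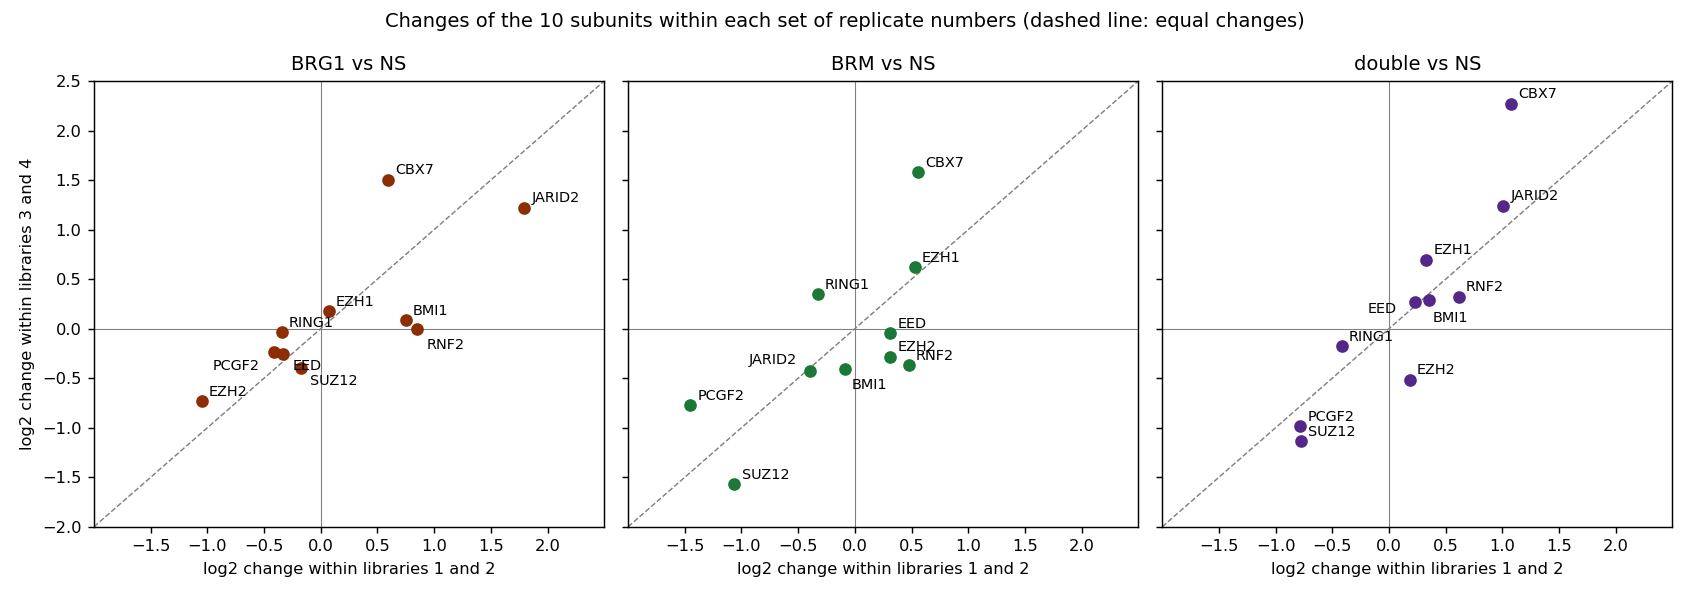
log2 change against NS within libraries 1 and 2 (horizontal axis) and within libraries 3 and 4 (vertical axis; the BRM group has 1 library there) for the 10 subunits in each knockdown, with a dashed line of equal changes. JARID2 lies at 1.80 and 1.22 after BRG1 knockdown and SUZ12 at -1.06 and -1.57 after BRM knockdown, while RNF2 after BRG1 knockdown lies at 0.85 and -0.01.

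Beyond these 10, the lists held 54 other Polycomb genes, of which 52 were tested. After BRG1 knockdown 3 rose and 7 fell, after BRM knockdown 1 rose and 7 fell, and after double knockdown 3 rose and 8 fell. The shares of higher and lower genes over all tested genes were 12.5 and 9.97% for BRG1, 7.66 and 6.26% for BRM and 11.8 and 9.90% for the double knockdown. With the replicate number as a block, 10 rose and 14 fell after BRG1 knockdown and 8 rose and 14 fell after double knockdown. That fit called 36.4% of all tested genes for BRG1 (19.5% higher and 16.8% lower) and 35.6% for the double knockdown (19.3% higher and 16.3% lower).

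Around the PRC2 core, RBBP4, a histone-binding subunit, was at 191.2 to 209.5 CPM in NS, 138.8 to 151.8 with BRG1 knocked down, 101.2 to 114.5 with BRM knocked down and 100.6 to 116.8 with both. All 11 knockdown libraries lay below NS. RBBP4 fell by 0.45 ± 0.11, 0.87 ± 0.13 and 0.86 ± 0.11 on the log2 scale in the 3 groups (edgeR adjusted p = 0.0101, 0.00053 and 0.000126). Of 8 tested accessory subunits, 1 rose after BRG1 knockdown and 2 after double knockdown, beside 12.5 and 11.8% of all tested genes. They were JARID2 in both and PHF1, a reader of methylated histone H3, in the latter (0.76 ± 0.22, adjusted p = 0.0246). The PHF1 call was lost without NS 1 (0.0699), NS 2 (0.0652), double 3 (0.0936) or double 4 (0.0775). In the fit without a block no accessory subunit fell. After BRM knockdown 0 of 8 were called, with 2 at an unadjusted p under 0.05, 0 by DESeq2 and a median log2 change of -0.37. In that comparison edgeR called 13.9% of all tested genes. With the replicate number as a block, 2 rose and 3 fell after BRG1 knockdown, beside 19.5 and 16.8% of all tested genes. After double knockdown 3 rose and 1 fell, beside 19.3 and 16.3%. After BRM knockdown 0 rose and 3 fell, where that fit called 4153 of the 14621 tested genes.

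Among canonical PRC1 genes, PHC1, a polyhomeotic subunit that lets the complex self-assemble, moved in opposite directions. It was at 17.9 to 26.5 CPM in NS, at 35.5 to 44.6 with BRG1 knocked down, at 4.2 to 7.75 with BRM knocked down and at 11.5 to 15 with both. No 2 of these 4 groups overlapped. By edgeR, PHC1 rose by 0.83 ± 0.19 after BRG1 knockdown, with an adjusted p of 0.00611, and fell by 1.95 ± 0.22 when BRM was knocked down (adjusted p = 0.000106) and by 0.72 ± 0.19 after double knockdown (adjusted p = 0.0147, and 0.0509 without NS 4). Among the CBX proteins, CBX6 fell by 1.28 ± 0.30 after BRM knockdown and by 1.10 ± 0.27 after double knockdown, and CBX2 fell by 1.86 ± 0.38 after double knockdown. SCML1 fell by 1.10 ± 0.32 after BRG1 knockdown. SCML2 rose by 0.82 ± 0.24 after BRM knockdown and by 0.74 ± 0.22 after double knockdown, calls lost in 11 and 5 of the 15 leave-outs (adjusted p at most 0.113 without BRM 1 and 0.126 without double 1). The SCML1 call was lost without NS 4 (adjusted p = 0.0609) or BRG1 3 (0.0643), and the CBX6 call after BRM knockdown without BRM 2 (0.0624).

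Among variant PRC1 genes, TFDP1, a partner of E2F factors, was at 75.7 to 109.2 CPM in NS, 38.7 to 48.4 with BRG1 knocked down, 72.8 to 84.2 with BRM knocked down and 36.8 to 46.4 with both. It fell by 1.08 ± 0.15 and 1.15 ± 0.15 in the BRG1 and double groups (edgeR adjusted p = 0.000176 and 0.000116) and was at -0.19 ± 0.16 after BRM knockdown (0.517). KDM2B, which brings a variant PRC1 to CpG islands, fell by 1.09 ± 0.24 after BRM knockdown and by 1.15 ± 0.22 after double knockdown (adjusted p = 0.00744 and 0.00164). The KDM2B change after double knockdown was -0.70 within libraries 1 and 2 and -1.47 within libraries 3 and 4, and this difference passed the test (adjusted p = 0.0404). PCGF5 fell by 0.82 ± 0.17 after BRG1 knockdown, and AUTS2 rose by 2.25 ± 0.56 there from a mean of 0.602 CPM with groups that overlapped. CSNK2A2 fell by 0.64 ± 0.12 after BRM knockdown and by 0.45 ± 0.11 after double knockdown, and MAX fell by 0.48 ± 0.15 after BRM knockdown. Of 9 tested genes of the complex that removes the ubiquitin mark (PR-DUB) and of the demethylases that remove the methyl mark, MBD5 rose by 0.67 ± 0.17 after BRG1 knockdown and ASXL1 fell by 0.50 ± 0.14 after BRM knockdown. These were the only calls among the 9 against NS. Over all tested genes, 12.5% rose after BRG1 knockdown and 6.26% fell after BRM knockdown. The MBD5 call was lost without BRG1 1 (adjusted p = 0.0578) or BRG1 2 (0.0563). The ASXL1 call was lost without NS 3 (0.0859), NS 4 (0.0811) or any of BRM 1, 2 and 3 (0.055, 0.0808 and 0.0611), and the MAX call without NS 1 (0.103), NS 3 (0.061), NS 4 (0.066), BRM 1 (0.077) or BRM 3 (0.0572).

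**Figure D5:**
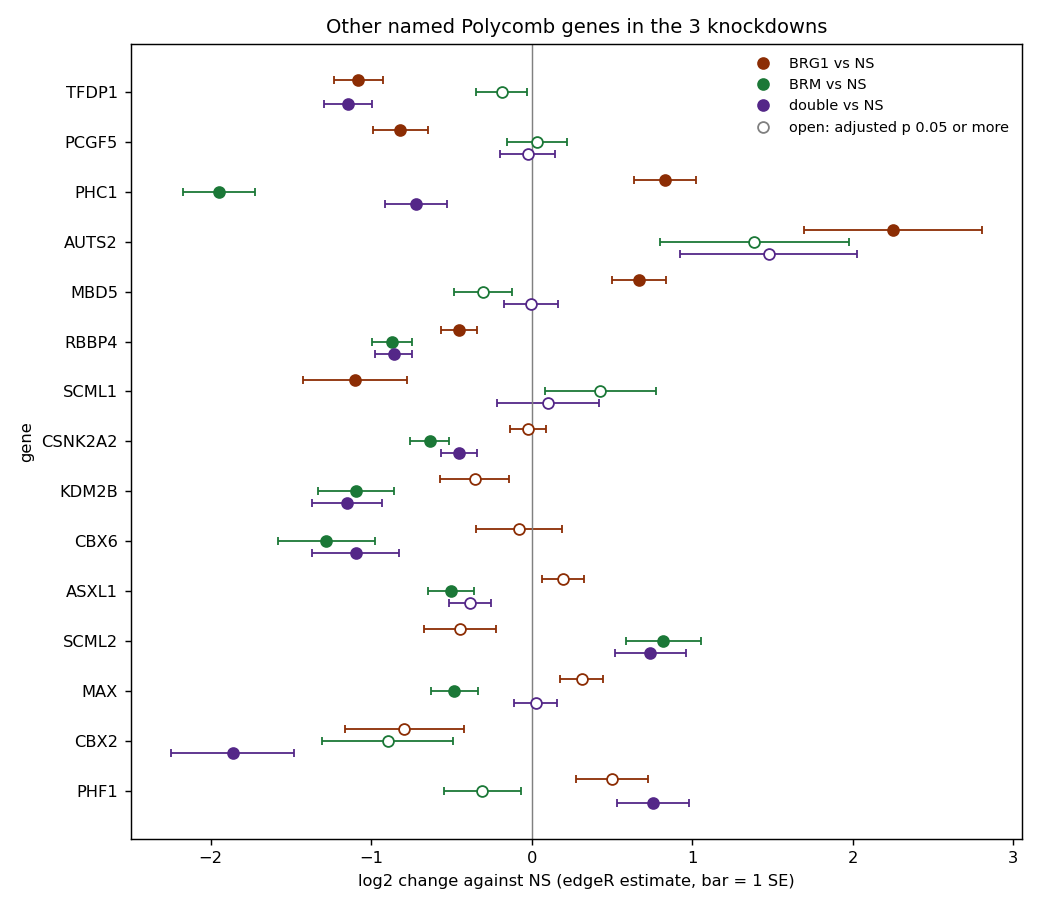
log2 change against NS (horizontal axis, edgeR estimate, bars of 1 standard error) of the named Polycomb genes other than the 10 subunits, for the 3 knockdowns; filled points have an adjusted p under 0.05. PHC1 lies at 0.83 after BRG1 knockdown and at -1.95 after BRM knockdown, and RBBP4 lies to the left in all 3.

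A list of 50 developmental genes and cell cycle inhibitors known as Polycomb targets was examined, of which 20 passed the filter on low counts and the other 30 were too low to test. The 20 are those with counts in these libraries and not a sample of the list. Of them, 4 rose and 3 fell after BRG1 knockdown, 1 rose and 4 fell after BRM knockdown, and 1 rose and 6 fell after double knockdown. The shares of higher and lower genes over all tested genes were 12.5 and 9.97%, 7.66 and 6.26%, and 11.8 and 9.90% in these comparisons. CDKN2A, which encodes the cell cycle inhibitor p16 and a second product, ARF, was at 11.7, 10.5, 9.87 and 8.88 CPM in NS and at 33.3, 34.5, 32.0 and 23.8 CPM in the BRG1 group. It rose by 1.59 ± 0.29 on the log2 scale there (edgeR adjusted p = 0.00136), with no overlap, and its changes were -0.91 ± 0.32 after BRM knockdown (0.0758) and 0.30 ± 0.29 after double knockdown (0.517). CDKN2B, the neighbouring inhibitor gene, was at 17.4, 16.5, 8.03 and 8.92 CPM in NS and at 72, 84.4, 36.2 and 31.1 CPM in the BRG1 group. It rose by 2.13 ± 0.36 (adjusted p = 0.000727), and was at 0.97 ± 0.35 after double knockdown (0.0602). Both genes overlap the antisense gene CDKN2B-AS1, whose reads cannot be told apart from theirs without a known strand setting.

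Among the developmental regulators of that list, FOXC1 rose by 1.81 ± 0.35 after BRG1 knockdown (adjusted p = 0.00177 by edgeR) and by 1.18 ± 0.36 after BRM knockdown (0.0437, lost in 12 of the 15 leave-outs, at most with 0.241 without BRM 2). MEIS2 fell by 0.64 ± 0.19, 1.09 ± 0.21 and 1.24 ± 0.19 after BRG1, BRM and double knockdown, and IRX3 by 1.22 ± 0.36, 1.48 ± 0.40 and 1.45 ± 0.36. The MEIS2 call after BRG1 knockdown was lost without NS 1 (adjusted p = 0.0611). The IRX3 calls were lost after BRG1 knockdown without NS 3, NS 4, BRG1 1 or BRG1 2 (0.0612 to 0.0851) and after BRM knockdown without NS 3, NS 4, BRM 1 or BRM 2 (0.0568 to 0.107). EOMES rose by 2.21 ± 0.48 and PAX6 fell by 2.28 ± 0.59 after double knockdown. The EOMES change rests on low counts, 17 over the NS libraries (mean 0.262 CPM) and 103 over the double libraries. It was 1.65 within libraries 1 and 2 and 2.89 within libraries 3 and 4. For PAX6 the NS libraries themselves were at 6.60, 6.57, 1.94 and 1.21 CPM, and its change was -2.85 within libraries 1 and 2 and -0.97 within libraries 3 and 4, a difference that passed the test (adjusted p = 0.0489). The signalling ligand WNT6 fell by 3.66 ± 0.60 after BRG1 knockdown and by 2.57 ± 0.63 after BRM knockdown (adjusted p = 0.0142, and 0.0692 without BRM 2). In the double knockdown WNT6 had 3 counts against 99 in NS, an NS level 39.9 times as high (exact binomial 95% interval 13.3 to 197, counting error only).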

How the data were processed

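RNA from 15 HepG2 libraries was analysed as the whole-number estimated counts per gene that the authors deposited. Kallisto, DESeq2 and GRCh38 are named, without versions, in the submitters' processing notes; for the annotation and strand setting the sources used here give nothing. The authors' comparison tables were not used. Every count column matched a library by its label.

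Genes passing filterByExpr (14621) were fitted in edgeR 4.0.16 (R 4.3.3) with TMM factors and the 4 group means of all 15 libraries (quasi-likelihood F test, robust, two-sided, Benjamini-Hochberg over all genes tested, threshold 0.05) and 7 contrasts. The standard error is the log2 change divided by the square root of F. The fit was tested on simulated data. CPM use TMM-scaled totals, and log2 CPM a prior count of 2. Coordinates and overlaps come from GENCODE v29, which names 33662 of the symbols. Of 158 list genes, 157 were found.

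Named genes were the 10 subunits, up to 8 other Polycomb, 6 target and 3 cell cycle genes called per knockdown by smallest adjusted p, the 3 genes most correlated with each subunit, SMARCA4 and SMARCA2. Some genes that this rule took are not reported here. The subunits and lists were chosen with earlier results of these data known.

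Same-numbered libraries were taken as paired where every pair's deviations from group means correlated above 0.1, which held for NS with BRG1 (0.427 to 0.565), NS with the double knockdown (0.179 to 0.454) and BRM with BRG1 (0.104 to 0.532). Those deviations include the difference between the library sets. The check therefore cannot tell a shared number from a shared set. Alternatives were RLE size factors, no filter, DESeq2 1.42.0, a replicate block, a term for the library sets, fits within sets and leaving out each library.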

Additional observations from a re-analysis of the deposited data

How the results depend on the processing

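Over 92 gene results, the call and direction were kept in 92 with RLE size factors, 89 with DESeq2 (3 gained), 82 with no filter (10 lost), 84 with the replicate block (8 gained) and 83 with a set term (9 gained). Within libraries 1 and 2, 75 were kept, 9 gained, 7 lost and 1 reversed; within libraries 3 and 4, 73, 4, 10 and 5. The reversed estimates, none of them called, were EZH2 after double knockdown within libraries 1 and 2 (0.18) and, within libraries 3 and 4, RNF2 after BRG1 knockdown (-0.0078) and EZH2 (-0.28), EED (-0.044), RING1 (0.35) and RNF2 (-0.37) after BRM knockdown. The cause was not tested.

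Counts of called genes with the replicate block were 5318 (BRG1 against NS), 4153 (BRM against NS), 5200 (double against NS), 3259 (double against BRG1), 5302 (double against BRM) and 633 (interaction). With the set term they were 5720, 4684, 5646, 3728, 5718 and 1061, and 7659 for BRG1 against BRM. Within libraries 1 and 2 they were 5921 (BRG1), 4336 (BRM), 4249 (double against BRG1), 4751 (double against BRM), 7461 (BRG1 against BRM) and 1938 (interaction), and within libraries 3 and 4 3349 (BRM), 5286 (double) and 530 (interaction). DESeq2 called 465 for the interaction. Subunits called with the replicate block were 4 (BRM), 5 (double), 3 (double against BRG1) and 2 (double against BRM); with the set term 4, 6, 3 and 2, and 7 for BRG1 against BRM; with no filter 1 (BRM) and 0 (double against BRG1, by edgeR); with DESeq2 2 (double against BRG1). Within libraries 1 and 2 they were 4 (BRG1), 5 (double), 3 (double against BRG1), 2 (double against BRM) and 1 (interaction, PCGF2), and within libraries 3 and 4 5 (double), 3 (double against BRM) and 1 (BRG1 against BRM). Pairing was not supported by the number check for the BRM group with NS or for the double group with either single knockdown. Of 42 comparisons, 18 had the best correlation with their own number.

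The RNF2 to RING1 difference was 1.18, 0.79 and 1.02 within libraries 1 and 2 (BRG1, BRM, double) and 0.027, -0.70 and 0.49 within libraries 3 and 4; the BMI1 to PCGF2 difference after BRM knockdown was 0.37 within libraries 3 and 4. Leaving out single libraries gave 2 to 5 subunits (BRG1 against BRM), 2 to 4 (BRG1), 0 to 2 (BRM), 0 to 3 (double against BRG1), 1 to 2 (double against BRM) and 1 to 4 (double). The counts of called genes were 973 to 2062 (BRM, lowest without BRM 2), 929 to 1720 (double against BRG1) and 38 to 185 (interaction). The RNF2 to RING1 difference was 0.37 to 0.85 (BRG1), -0.025 to 0.86 (BRM) and 0.61 to 0.96 (double), and the BMI1 to PCGF2 difference 0.83 to 1.77 (BRM). Leave-outs reversed EZH1 after BRG1 knockdown (-0.15 to 0.33), EZH2 after BRM knockdown (-0.28 to 0.28) and RING1 after BRM knockdown (-0.56 to 0.074). Low counts limit CBX7.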

Other observations

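Of 14 listed E2F and retinoblastoma family genes, which control entry into the cell cycle, 0 rose and 3 fell after BRG1 knockdown, with a median log2 change of -0.56 beside 0.02 over all tested genes, of which 22.5% were called. After double knockdown 1 rose and 2 fell, with a median of -0.05, where 21.6% of all tested genes were called. Counted in either direction, both lie near these shares. By direction, 9.97% of all tested genes fell after BRG1 knockdown. With the replicate number as a block, 2 of the 14 rose and 8 fell after BRG1 knockdown, beside 19.5 and 16.8% of all tested genes. After double knockdown that fit called 1 higher and 3 lower, beside 19.3 and 16.3%. After BRM knockdown 0 were called by edgeR, which called 13.9% of all tested genes, with 2 below 0.05 before adjustment and 1 by DESeq2.

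The remaining subunits had these closest followers over the 15 libraries, given as descriptions. They were THAP2 (r = 0.98) for EZH1, ZNF530 (0.894) for EED, C5orf24 (0.968) for BMI1, CPTP (0.984) for RING1, FUBP3 (0.946) for RNF2 and OPTN (0.955) for CBX7. EED had the weakest best match of the 10.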
